A study of Homo sapiens with 24 samples.

Results

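The transcripts of the G1 cyclins and of the kinases they activate were followed through CDK4/6 inhibition in oestrogen receptor (ER)-negative breast cancer cells. The set was chosen by name, as the D-type cyclins CCND1, CCND2 and CCND3, the E-type cyclins CCNE1 and CCNE2 and the kinases CDK2, CDK4 and CDK6, and all 8 had a row among the 59609 named genes of the count table. Of the 8, 7 had at least 1 count and passed the filter on low counts in both lines. CCND2 had 0 counts in all 24 libraries, where a count of 0 allows a level of up to 0.0352 CPM (counts scaled to library size) as far as counting error goes. In the GENCODE v44 annotation CCND2 shares 999 exon bases, 437 of which lie in the last 500 bases of transcripts, with the protein-coding gene ENSG00000285901 on the same strand. How reads in these bases were assigned is not known here, so the 0 counts set no bound on CCND2 expression.

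The libraries were 3′ RNA-seq, in which reads come from the 3′ end of each transcript, and the cells were of the lines MDA-MB-453 and MDA-MB-231. Both are established ER-negative breast cancer lines labelled as wild type in genotype, and they were grown in serum-containing media (RPMI-1640 for MDA-MB-231 and DMEM for MDA-MB-453). Each line received DMSO as the solvent control, 500 nM abemaciclib, 5 nM fulvestrant or the 2 drugs together for 5 days, which gave 8 groups of 3 biological replicates from a single experiment. Abemaciclib blocks the kinases CDK4 and CDK6, whereas fulvestrant leads to degradation of the ER. Each line stands for its subtype as a single culture model, and medium and line cannot be told apart in any comparison between them.

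D-type cyclins are made in response to growth signals and activate CDK4 and CDK6, which begin to phosphorylate the retinoblastoma protein Rb. Phosphorylated Rb releases E2F factors, which switch on the genes of DNA replication, and cyclin E with CDK2 then completes Rb phosphorylation and starts S phase. CCND1 is a common driver in breast cancer, and CCNE1, CCNE2 and CDK2 are known as a route by which cells can cycle when CDK4 and CDK6 are blocked.

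RefSeq promoter windows (GRCh38.p14) ran from 250 bases before to 50 bases after a transcript start. The search covered 7 windows of 4 of the 8 genes, CCND3, CCNE1, CDK4 and CDK6. No window of CCND1, CCND2, CCNE2 or CDK2 was searched, so the search says nothing about the promoters of these genes. None of the 7 windows held the E2F strings TTTCCCGC, TTTCGCGC, TTTGCCGC or TTTGGCGC, which 3.31% of all 35116 windows hold on either strand, or the strings TTTGAA or TTCGAA of the cell cycle homology region, which 16.4% hold. Only these exact strings were searched for, so sites with other letters or outside the windows would be missed. With shares this low, their absence from 7 windows does not show that these genes lack such sites. Windows are printed for CCNE1, an E-type cyclin that fell in MDA-MB-453, and for CDK4 and CDK6 as the targets of abemaciclib. Capitals mark the GC box GGGCGG in the CCNE1 window (chr19:29811741-29812040, plus strand) and the E-box CACGTG in those of CDK4 (chr12:57752261-57752560, minus strand) and CDK6 (chr7:92836524-92836823, minus strand), each on either strand.
CCNE1 promoter: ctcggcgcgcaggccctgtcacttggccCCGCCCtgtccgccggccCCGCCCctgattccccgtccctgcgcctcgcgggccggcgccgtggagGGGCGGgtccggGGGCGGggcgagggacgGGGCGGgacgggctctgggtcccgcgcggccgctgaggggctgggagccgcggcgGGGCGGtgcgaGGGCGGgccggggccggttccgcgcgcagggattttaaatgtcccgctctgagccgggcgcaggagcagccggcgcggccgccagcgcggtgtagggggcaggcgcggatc
CDK4 promoter: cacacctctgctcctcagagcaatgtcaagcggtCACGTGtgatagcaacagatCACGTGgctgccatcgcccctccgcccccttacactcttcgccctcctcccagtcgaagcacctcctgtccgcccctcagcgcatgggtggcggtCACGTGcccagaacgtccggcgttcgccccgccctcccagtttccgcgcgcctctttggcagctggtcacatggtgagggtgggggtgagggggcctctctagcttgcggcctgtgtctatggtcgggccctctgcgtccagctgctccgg
CDK6 promoter: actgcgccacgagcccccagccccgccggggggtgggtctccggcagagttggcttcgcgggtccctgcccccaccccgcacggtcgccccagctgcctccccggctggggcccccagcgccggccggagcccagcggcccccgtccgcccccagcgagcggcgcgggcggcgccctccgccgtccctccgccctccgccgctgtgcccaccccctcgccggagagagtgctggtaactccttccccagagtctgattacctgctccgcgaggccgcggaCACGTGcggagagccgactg

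The CCNE1 window held 7 GC boxes, a binding site of SP family factors that 45% of all windows contain. GC boxes, not marked in the other printed windows, were also in those of CDK4 (3), CDK6 (3 and 0) and CCND3 (5, 4 and 0). The CDK4 window held 3 E-boxes, the site bound by MYC and related factors, and the printed CDK6 window held 1, against 7.26% of all windows with any. The second CDK6 window, the CCND3 windows and the CCNE1 window each held 0. The GC box and the E-box were searched for after the windows had been read, so their presence is a description.

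Library totals ran from 2873558 to 4158762 counts, and the smallest level that 3 counts over a group allow was 0.255 to 0.300 CPM. All levels are CPM scaled by TMM (trimmed mean of M values). VIM, CD44 and AXL, markers of mesenchymal cells, had 0 counts in MDA-MB-453. All 5 mesenchymal markers on the list were called lower there than in MDA-MB-231 under DMSO. Leucocyte markers had at most 2 counts in any group. Of 3 fibroblast markers, 1 was tested across the lines and called higher in MDA-MB-453 under DMSO (log2 difference 2.85). In MDA-MB-453, 1 was tested and called lower under abemaciclib (-1.02). The mitochondrial share of counts moved with abemaciclib, from 8.83% to 12.2% (MDA-MB-231) and from 15.2% to 23.8% (MDA-MB-453). Leaving mitochondrial genes out changed no member's call in any comparison within a line. By chi-square per degree of freedom between replicates, 3 libraries stood furthest from their groups: fulvestrant replicate 1 of MDA-MB-231 (8.65 and 7.81, against 2.96 between the other two) and, of MDA-MB-453, abemaciclib replicate 1 (7.67 and 8.18, against 3.76) and fulvestrant replicate 3 (7.31 and 8.39, against 2.97). No cutoff was set. Abemaciclib replicate 3 of MDA-MB-231 came next (4.98 and 6.05, against 3.76). Leaving it out changed the calls of CCND3 and CDK6 under abemaciclib in that line, as given below. Leaving out either library of MDA-MB-453 kept the number of members called under abemaciclib in that line at 6 and under fulvestrant at 0. These are bulk samples, in which fewer cells with a transcript and less transcript per cell cannot be told apart.

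**Figure D1:**
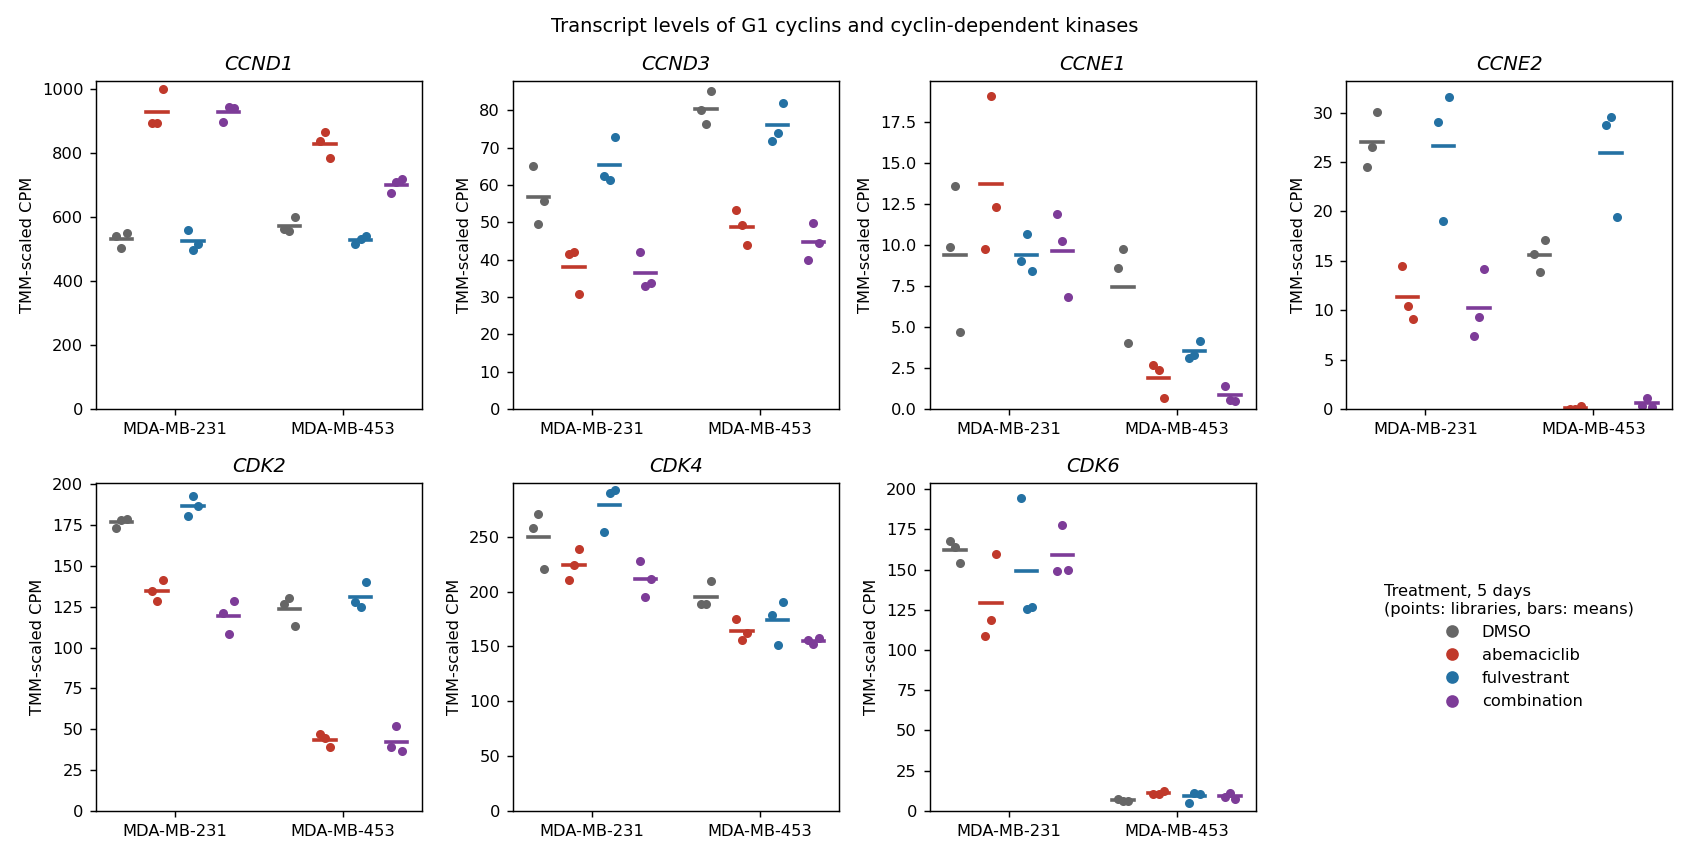
TMM-scaled CPM (linear axes from 0) of the 7 detected genes in each of the 24 libraries, by line and treatment. Points are libraries and bars are means of 3. CCND1 was at 786 to 1001 CPM in the 6 libraries with abemaciclib alone, CCNE2 was at or near 0 in the MDA-MB-453 libraries with abemaciclib, and CDK6 separated the lines under every treatment.

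CCND1 rose with abemaciclib in both lines while CCND3, the other detected D-type cyclin, fell. CCND1 encodes cyclin D1. In MDA-MB-231 its level was 542, 504 and 550 CPM under DMSO and 895, 895 and 1001 CPM under abemaciclib. In MDA-MB-453 it was 564, 558 and 600 CPM under DMSO and 838, 865 and 786 CPM under abemaciclib. Treated and control libraries did not overlap in either line. The log2 fold change was 0.81 (SE 0.08, a level 1.75 times that of DMSO, adjusted p = 2.27e-10) in MDA-MB-231 and 0.53 (SE 0.08, 1.44 times, adjusted p = 2.57e-07) in MDA-MB-453, by edgeR's quasi-likelihood test with Benjamini-Hochberg adjustment. The difference between these effects was -0.27 (95% interval -0.49 to -0.05, adjusted p = 0.0697), and 14 of its 29 alternative analyses put it below the threshold.

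CCND3, which encodes cyclin D3, was in MDA-MB-231 at 65.0, 49.6 and 55.8 CPM under DMSO and at 41.6, 42.0 and 31.0 CPM under abemaciclib. In MDA-MB-453 it was at 80.1, 76.2 and 85.1 CPM under DMSO and at 53.3, 49.4 and 43.9 CPM under abemaciclib. Every abemaciclib library lay below every DMSO library of its line. The log2 fold change was -0.57 (SE 0.16, adjusted p = 0.00488) in MDA-MB-231 and -0.72 (SE 0.14, adjusted p = 2.86e-05) in MDA-MB-453 (edgeR). Without abemaciclib replicate 3, the lowest library, the MDA-MB-231 value was -0.44 with an adjusted p of 0.0505. The difference between the lines in this effect was -0.14 (95% interval -0.57 to 0.28).

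The D-type cyclin counts were made up more of CCND1 under abemaciclib than under DMSO in both lines. CCND1 held 90.4% ± 0.95 (SD, n = 3) of the D-type cyclin counts in MDA-MB-231 under DMSO and 96.0% ± 0.844 with abemaciclib. Its share in MDA-MB-453 was 87.7% ± 0.242 under DMSO and 94.4% ± 0.369 with abemaciclib. Fulvestrant left shares of 88.9% and 87.5%, and the combination gave 96.2% and 94.0%, in MDA-MB-231 and MDA-MB-453 respectively. The shares were not tested, since they follow from the counts of CCND1 and CCND3.

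CCNE2, an E-type cyclin, fell in both lines and was almost undetected in MDA-MB-453 under abemaciclib. In MDA-MB-231 its level was 24.5, 26.5 and 30.1 CPM under DMSO and 14.5, 10.4 and 9.08 CPM under abemaciclib, with no overlap. The log2 fold change was -1.25 (SE 0.26, 0.421 of the DMSO level, adjusted p = 0.000142, edgeR). In MDA-MB-453, the DMSO libraries were at 15.7, 13.9 and 17.1 CPM, and the abemaciclib libraries were at 0, 0 and 0.335 CPM. The group totals were 162 counts under DMSO and 1 count under abemaciclib, a ratio of 156 after scaling, with a 95% counting interval of 27.6 to 6205. The edgeR estimate was -6.85 (adjusted p = 2.21e-12), a size that depends on the prior count because only 1 read was left.

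CCNE1, the other E-type cyclin, fell in MDA-MB-453 and did not pass the test in MDA-MB-231. Its MDA-MB-453 libraries were at 8.60, 9.74 and 4.05 CPM under DMSO and at 2.68, 2.41 and 0.670 CPM under abemaciclib. No library overlapped between these groups, although the DMSO values themselves spread from 4.05 to 9.74 CPM. The log2 fold change was -1.92 (SE 0.57, adjusted p = 0.00675, edgeR), and without DMSO replicate 2 it was -1.68 with an adjusted p of 0.0538. In MDA-MB-231 the values were 9.84, 13.6 and 4.72 CPM under DMSO and 9.78, 19.0 and 12.3 CPM under abemaciclib. These groups overlapped, and the log2 fold change of 0.54 had a 95% interval of -0.13 to 1.22 (adjusted p = 0.219). The E-type cyclin counts under abemaciclib were 145 for CCNE1 and 121 for CCNE2 in MDA-MB-231, but 20 and 1 in MDA-MB-453.

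CDK2, the partner of cyclin E and cyclin A, fell with abemaciclib in both lines. In MDA-MB-231 it was at 173, 178 and 179 CPM under DMSO and at 134, 129 and 141 CPM under abemaciclib. In MDA-MB-453 it was at 127, 130 and 114 CPM under DMSO and at 47.4, 44.6 and 39.2 CPM under abemaciclib. Neither line's groups overlapped. The log2 fold change was -0.39 (SE 0.10, 0.764 of the DMSO level, adjusted p = 0.00324) in MDA-MB-231 and -1.50 (SE 0.13, 0.354 of the DMSO level, adjusted p = 4.98e-13) in MDA-MB-453 (edgeR).

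Of the transcripts of the drug's own targets, CDK4 and CDK6, abemaciclib alone changed CDK4 past the threshold in MDA-MB-453, and the other 3 comparisons with DMSO did not pass. In MDA-MB-231, CDK4 was at 258, 271 and 221 CPM under DMSO and at 211, 224 and 239 CPM under abemaciclib. The groups overlapped, and the log2 fold change was -0.15 (95% interval -0.36 to 0.05, adjusted p = 0.266). In MDA-MB-453 it was at 188, 189 and 210 CPM under DMSO and at 175, 156 and 162 CPM under abemaciclib, without overlap. Its log2 fold change there was -0.26 (SE 0.10, adjusted p = 0.0396, edgeR), a call that was lost in 7 of 18 alternative analyses, with an adjusted p of up to 0.185. These included leaving out any 1 DMSO library or abemaciclib replicate 2 or 3. The difference between the lines in the CDK4 effect was -0.10 (95% interval -0.38 to 0.19).

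CDK6, the other target, did not pass the test within either line. In MDA-MB-231 it was at 168, 164 and 154 CPM under DMSO and at 109, 119 and 160 CPM under abemaciclib, with a log2 fold change of -0.32 (adjusted p = 0.0592). Abemaciclib replicate 3 was the library that overlapped DMSO. Without it the value was -0.51 with an adjusted p of 0.00522, and CDK6 was also called in 4 other analyses, 2 of which left out a fulvestrant library. In MDA-MB-453 it was at 7.12, 6.12 and 6.37 CPM under DMSO and at 10.7, 10.5 and 12.4 CPM under abemaciclib. These groups did not overlap, and the log2 fold change was 0.77 (95% interval 0.07 to 1.46, adjusted p = 0.0791, edgeR).

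Of the 7 genes tested, 1 rose and 3 fell under abemaciclib in MDA-MB-231, and 1 rose and 5 fell in MDA-MB-453. Among all 11314 genes tested in MDA-MB-231, 33.7% were called, 16.9% higher and 16.9% lower. Among the 11080 tested in MDA-MB-453, 36.0% were called, 16.6% higher and 19.4% lower. The median log2 fold change of the 7 genes was -0.32 in MDA-MB-231 and in the other line -0.72, beside medians of -0.00053 and -0.0019 over all genes tested.

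**Figure D2:**
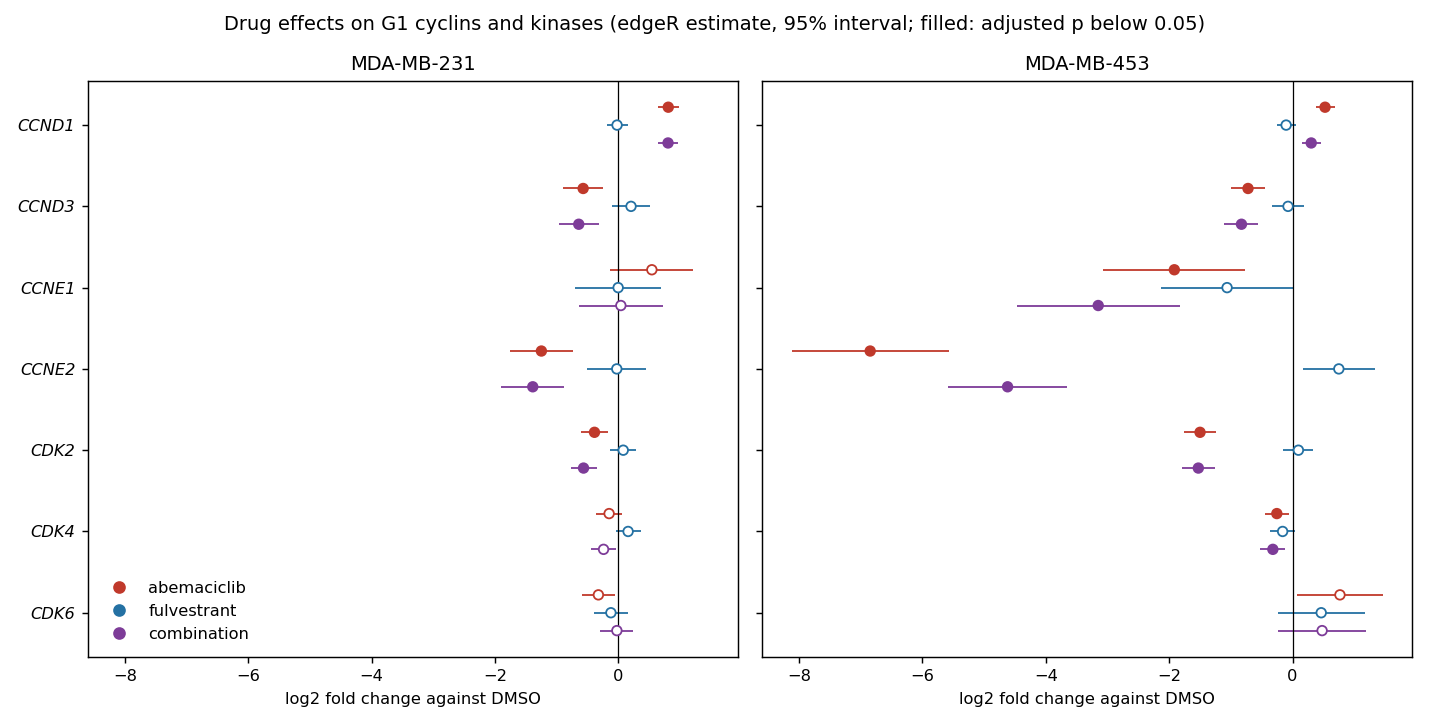
Log2 fold change against DMSO (x axis) of the 7 detected genes (y axis) under abemaciclib, fulvestrant and the combination in MDA-MB-231 (left) and MDA-MB-453 (right). Bars are 95% intervals of the edgeR estimate and filled points have an adjusted p below 0.05. The abemaciclib and combination estimates of CCND1 are above 0 in both lines, from 0.30 to 0.81, and no fulvestrant estimate is filled.

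Fulvestrant alone changed none of the 7 genes past the threshold in either line. In MDA-MB-231, 0 of the genes were called and 0 had an unadjusted p below 0.05, where edgeR called 0% of all genes (0 genes, with 799 at an unadjusted p below 0.05) and DESeq2 called 0. The log2 fold changes ran from -0.12 for CDK6 to 0.20 for CCND3. CDK6 was at 195, 125 and 127 CPM, so that fulvestrant replicate 1 alone was above all DMSO libraries, and without it the CDK6 value was -0.36 (adjusted p = 0.138). In MDA-MB-453, where 1.41% of all genes were called, 0 of the 7 were called by edgeR or by DESeq2. Only CCNE2 had an unadjusted p below 0.05 there.

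CCNE2 under fulvestrant in MDA-MB-453 was at 28.8, 29.6 and 19.4 CPM, all above the DMSO libraries, with a log2 fold change of 0.75 (95% interval 0.17 to 1.33, adjusted p = 0.194, edgeR). Without fulvestrant replicate 3, the lowest of them, it was 0.92 (adjusted p = 0.0643). CCNE1 was at 3.14, 3.31 and 4.18 CPM, a log2 difference from DMSO of -1.06 (95% interval -2.13 to 0.0037, adjusted p = 0.368). The E-type cyclins had estimates of opposite sign under fulvestrant, neither of which passed. CCND1 was at 516, 533 and 540 CPM, just below the DMSO libraries, with a log2 fold change of -0.10 (95% interval -0.26 to 0.05). CDK2 had the value 0.09 and CDK4 the value -0.16 in the same comparison.

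Under the combination, the genes called against DMSO were those called under abemaciclib in each line. Both comparisons use the same DMSO libraries, so each has its own values here. In MDA-MB-231, 1 gene rose and 3 fell, where 35.4% of all genes were called, 17.0% higher and 18.3% lower. CCND1 was at 897, 944 and 941 CPM (log2 fold change 0.80, adjusted p = 2.04e-10), CCND3 at 42.2, 33.0 and 33.9 CPM (-0.64, adjusted p = 0.00144) and CCNE2 at 7.38, 9.29 and 14.2 CPM (-1.39, adjusted p = 2.74e-05). CDK2 was at 121, 108 and 128 CPM (-0.57, adjusted p = 3.18e-05, edgeR). None of these groups overlapped DMSO. CDK4 had a log2 fold change of -0.24 (adjusted p = 0.0592), which passed without DMSO replicate 3, without fulvestrant replicate 1 and with only the groups compared in the fit.

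In MDA-MB-453, 1 gene rose and 5 fell under the combination, where 37.6% of all genes were called, 17.6% higher and 20.0% lower. CCND1 was at 674, 710 and 721 CPM, between the DMSO and the abemaciclib libraries (log2 fold change 0.30, SE 0.08, adjusted p = 0.0014). CCND3 was at 40.0, 49.8 and 44.6 CPM (-0.83, adjusted p = 3.2e-06) and CDK2 at 38.93, 51.9 and 36.6 CPM (-1.53, adjusted p = 3.1e-13). CCNE1 was at 1.40, 0.586 and 0.519 CPM, a total of 8 counts against 78 under DMSO, so that DMSO was 9.47 times higher (95% counting interval 4.58 to 22.7, log2 fold change -3.15, adjusted p = 0.000128). CCNE2 was at 0.351, 1.17 and 0.259 CPM, 6 counts against 162, so that DMSO was 26.2 times higher (95% counting interval 11.8 to 72.5, adjusted p = 6.95e-11). Both E-type cyclins were below all DMSO libraries. CDK4 was at 156, 152 and 158 CPM, with a log2 fold change of -0.32 (adjusted p = 0.00897, edgeR), which was -0.27 without DMSO replicate 3 (adjusted p = 0.0667).

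Adding fulvestrant to abemaciclib called 0 of the 7 genes in either line by edgeR, where 0.0265% of all genes were called in MDA-MB-231, against 2.46% in MDA-MB-453. CDK6 in MDA-MB-231 was the 1 gene with an unadjusted p below 0.05, at 149, 178 and 150 CPM under the combination (log2 difference from abemaciclib 0.30, 95% interval 0.03 to 0.57, adjusted p = 0.431), and DESeq2 called 0. In MDA-MB-453 the 1 gene was CCND1. Its combination libraries all lay below its abemaciclib libraries, with a log2 difference of -0.22 (95% interval -0.38 to -0.07, adjusted p = 0.108). DESeq2 called it (adjusted p = 0.0172), as did edgeR without fulvestrant replicate 3 (adjusted p = 0.0359). CCNE2 had 1 count under abemaciclib against 6 under the combination, and this difference did not pass (adjusted p = 0.358).

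Adding abemaciclib to fulvestrant called 5 of the 7 genes in each line, where 36.1% (MDA-MB-231) and 36.6% (MDA-MB-453) of all genes were called. In MDA-MB-231 CCND1 rose (0.83), and CCND3 (-0.85), CCNE2 (-1.36), CDK2 (-0.64) and CDK4 (-0.40, adjusted p = 0.00163) fell. In MDA-MB-453 CCND1 rose (0.41), and CCND3 (-0.76), CCNE1 (-2.09), CCNE2 (6 counts against 291) and CDK2 (-1.62) fell. The MDA-MB-453 call of CCNE1 was lost without combination replicate 2 or 3, with an adjusted p of up to 0.0724. A departure of the combination from the sum of the single drug effects on the log2 scale was called for 0 of the 7 genes in both lines by edgeR and by DESeq2, where 0.124% of all genes were called in MDA-MB-231, against 3.80% in MDA-MB-453. CDK6 in MDA-MB-231 had the departure with an unadjusted p below 0.05, of 0.42 (adjusted p = 0.376). Without fulvestrant replicate 1 it was 0.66 (adjusted p = 0.0103), and the combination was then above fulvestrant by 0.34 (adjusted p = 0.0295), against 0.10 with all libraries. In MDA-MB-453, 0 of the 7 had an unadjusted p below 0.05.

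Of the 7 genes, CDK6 had the largest log2 difference between the lines. Under DMSO CDK6 was at 162 ± 6.99 CPM (SD, n = 3) in MDA-MB-231 and at 6.54 ± 0.519 CPM in MDA-MB-453, a log2 difference of -4.63 (SE 0.21, MDA-MB-453 minus MDA-MB-231, adjusted p = 7.17e-25, edgeR on 24 libraries). CCNE2 (-0.80, adjusted p = 0.00751), CDK2 (-0.52, adjusted p = 5.92e-05) and CDK4 (-0.35, adjusted p = 0.00177) were also lower in MDA-MB-453. CCND3 was higher there (0.50, adjusted p = 0.00196). CCND1 and CCNE1 did not pass, with differences of 0.11 (95% interval -0.05 to 0.27) and -0.33 (-1.12 to 0.46). In all, 1 gene was called higher and 4 lower, where 69.8% of all 12750 genes were called, 34.3% higher and 35.6% lower.

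**Figure D3:**
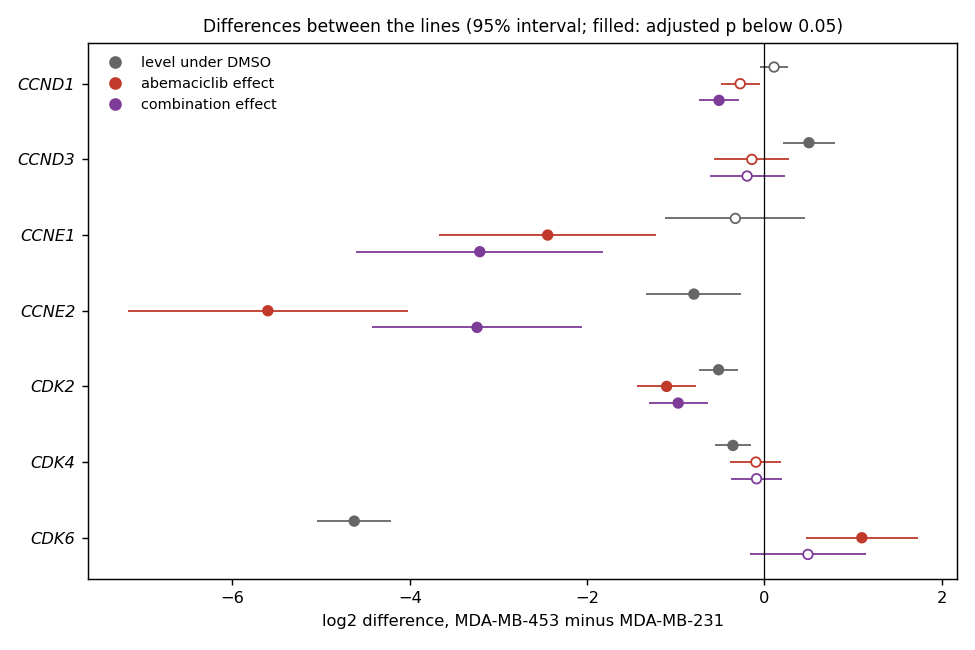
Log2 difference between the lines, MDA-MB-453 minus MDA-MB-231 (x axis), in the DMSO level, the abemaciclib effect and the combination effect of the 7 detected genes (y axis). Bars are 95% intervals of the edgeR estimate and filled points have an adjusted p below 0.05. CDK6 has the lowest DMSO difference, -4.63, and CCNE2 the lowest abemaciclib difference, -5.60.

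The effects of abemaciclib themselves differed between the lines for 4 of the 7 genes, 1 higher and 3 lower in MDA-MB-453, where 20.7% of all genes were called, 7.72% higher and 13.0% lower. CCNE1 had a difference of effects of -2.44 (SE 0.61, adjusted p = 0.00234), CCNE2 of -5.60 (adjusted p = 2.75e-07) and CDK2 of -1.10 (SE 0.16, adjusted p = 9.79e-07). The size of the CCNE2 difference depends on the prior count, as above. CDK6 had a difference of 1.10 (SE 0.31, adjusted p = 0.00832) although its change passed in neither line alone. For the combination, 0 genes were higher and 4 lower, where 17.7% of all genes were called, 6.16% higher and 11.6% lower. These were CCND1 (-0.51, adjusted p = 0.000429), CCNE1 (-3.21, adjusted p = 0.000464), CCNE2 (-3.24, adjusted p = 3.94e-05) and CDK2 (-0.97, adjusted p = 1.17e-05, edgeR). For fulvestrant 0 of the 7 were called by edgeR or by DESeq2, with 1.06% of all genes called. CCNE2 (0.76) and CDK4 (-0.33) were the 2 genes with an unadjusted p below 0.05.

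Over the 8 groups, the order of the levels differed between the genes. CCND1 ran from 525 CPM in MDA-MB-231 with fulvestrant to 930 CPM in MDA-MB-231 with abemaciclib. Neighbouring groups overlapped between abemaciclib and the combination in MDA-MB-231 and among the DMSO group of MDA-MB-231 and both fulvestrant groups, and the other neighbours were apart. CCND3 ran from 36.3 CPM in MDA-MB-231 with the combination to 80.5 CPM in MDA-MB-453 with DMSO, and each neighbouring pair overlapped. CCNE1 ran from 0.836 CPM in MDA-MB-453 with the combination to 13.7 CPM in MDA-MB-231 with abemaciclib, with a gap between neighbours at the step from fulvestrant to abemaciclib in MDA-MB-453. CCNE2 ran from 0.112 CPM in MDA-MB-453 with abemaciclib to 27.0 CPM in MDA-MB-231 with DMSO. Its neighbours were apart between MDA-MB-453 fulvestrant and DMSO and between MDA-MB-231 with the combination and MDA-MB-453 with the combination. CDK2 was lowest in MDA-MB-453 with the combination, 42.5 CPM, and highest in MDA-MB-231 with fulvestrant, 187 CPM, and its MDA-MB-453 libraries with abemaciclib or the combination stood below all others. CDK4 spanned 155 to 279 CPM, with every neighbouring pair overlapping. CDK6 spanned 6.54 to 162 CPM, with its gap between the lines.

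The other genes of the pathway were described by lists fixed by name, whose counts stand beside the 33.7% (MDA-MB-231) and 36.0% (MDA-MB-453) of all genes called under abemaciclib. All 5 of the tested S and M phase cyclins and CDK1 fell under abemaciclib in both lines, with medians of -0.85 (MDA-MB-231) and -4.60 (MDA-MB-453) on the log2 scale. CCNA2, cyclin A2, which succeeds cyclin E as the partner of CDK2, fell by 1.58 on the log2 scale in MDA-MB-231 (109 to 36.3 CPM) and was left with 5 counts against 439 in MDA-MB-453. Of the 10 E2F and DP factors, 0 rose and 4 fell in MDA-MB-231, and 1 rose and 6 fell in MDA-MB-453, with medians of -0.34 and -0.97. E2F1, an activator of replication genes, had log2 fold changes of -0.82 (adjusted p = 0.000507) and -2.89. E2F8, a repressor of the family, fell by 1.25 in MDA-MB-231, and E2F2, an activator, went from 590 to 5 counts in MDA-MB-453. The log2 fold changes were -4.09 for E2F8 in MDA-MB-453 and -1.99 for E2F2 in MDA-MB-231.

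Of the 3 pocket proteins, 1 rose and 1 fell in MDA-MB-231 and 1 rose and 2 fell in MDA-MB-453. RB1 in MDA-MB-231 was at 52.0 CPM with DMSO and at 39.8 CPM with abemaciclib (log2 fold change -0.38, adjusted p = 0.0646) and fell from 61.3 to 42.4 CPM in MDA-MB-453 (-0.53, adjusted p = 0.00461, edgeR). RBL1, which encodes p107, fell by 1.16 in MDA-MB-231 and by 2.95 in MDA-MB-453. RBL2, which encodes p130, rose by 1.35 in MDA-MB-231 and by 0.67 in MDA-MB-453. Of the CDK inhibitors, 0 of 5 tested were called in MDA-MB-231, and 0 rose and 3 of 6 fell in MDA-MB-453. CDKN1A, which encodes p21, was under DMSO and abemaciclib at 23.0 and 16.5 CPM in MDA-MB-231 (adjusted p = 0.107) and at 14.1 and 12.0 CPM in the other line (adjusted p = 0.576). CDKN1B, which encodes p27, had log2 fold changes of 0.36 and -0.09, neither of which passed. CDKN2A, which encodes the CDK4/6 inhibitor p16, had 0 counts in all MDA-MB-231 groups and fell from 36.2 to 11.3 CPM in MDA-MB-453 (-1.69). CDKN2D, which encodes the related inhibitor p19, fell by 1.73 there.

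Of the 5 genes of CDK activation, 0 rose and 3 fell in MDA-MB-231 and 0 rose and 1 fell in MDA-MB-453. CDC25A, the phosphatase that removes inhibitory phosphates from CDK2, fell by 1.26 in MDA-MB-231 and fell by 2.63 in MDA-MB-453. Of the 13 tested genes of cyclin turnover, 2 rose and 3 fell in each line, a share near that of all genes. SKP2, part of a ubiquitin ligase that degrades p27, fell by 1.57 in MDA-MB-231, and its cofactor CKS1B fell by 1.41 in MDA-MB-453. Among the other cyclins and CDKs, 4 of 25 rose and 4 fell in MDA-MB-231, and 5 of 23 rose and 2 fell in MDA-MB-453, with medians of -0.02 and 0.15, and these shares too were near those of all genes. CCNG1 rose by 0.98 in MDA-MB-231 and CCNG2, a cyclin linked to cell cycle exit, rose by 1.23 in MDA-MB-453. The log2 fold changes were 0.15 for CCNG1 in MDA-MB-453 and 1.71 for CCNG2 in MDA-MB-231.

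**Figure D4:**
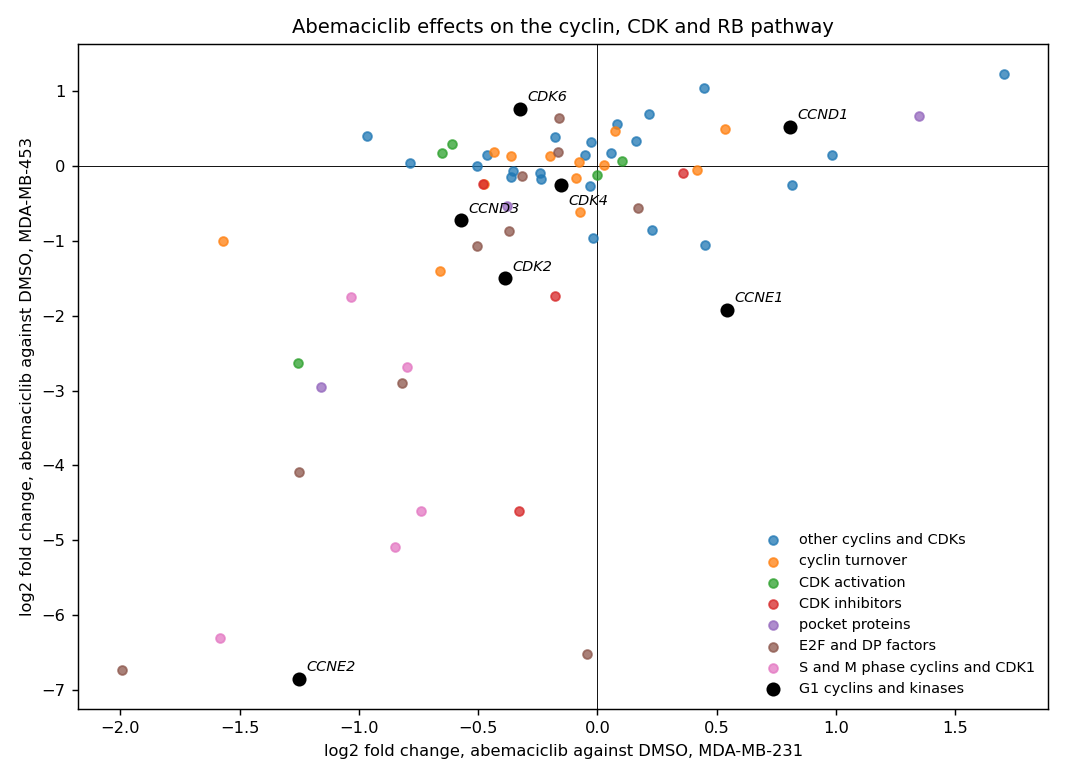
Log2 fold change under abemaciclib against DMSO in MDA-MB-231 (x axis) and MDA-MB-453 (y axis) for the 70 genes of the pathway lists tested in both lines, coloured by list, with the 7 G1 cyclins and kinases in black. CCNE2 lies near CCNA2 at the lower left, CCND1 lies above 0 on both axes, and the other cyclins and CDKs spread around 0.

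Some genes followed the members closely over the 12 libraries of a line, as described by Pearson's r of log2 levels with a pseudocount of 1 CPM. These libraries share the same 4 treatment groups, and the values carry no test. In MDA-MB-231 the genes most like CCND1 were PDLIM5 (r = 0.994), DUSP6 (0.991), a phosphatase induced by ERK signalling, and MFGE8 (0.991). In MDA-MB-453 they were EZR (0.988), RNASET2 (0.982) and CAPN2 (0.980). CCNE2 in MDA-MB-453 was followed by NASP (0.993), a histone chaperone, GTSE1 (0.993) and DLGAP5 (0.991), a mitotic spindle gene. CDK2 there was followed by LIG1 (0.990) and MCM2 (0.990), both of DNA replication, and PTTG1 (0.990), which encodes securin. In MDA-MB-231 the genes nearest to CDK2 were ATAD3A (0.988), PAFAH1B2 (0.985) and PSMD3 (0.983), and those nearest to CCNE2 were SF3A1 (0.968), CHCHD4 (0.965) and UTP11 (0.963).

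CCND3 was followed most closely by POLR2J (0.983), CPSF7 (0.966) and CDCA5 (0.963) in MDA-MB-231 and by TUBB4B (0.985), RANGAP1 (0.984) and HCFC1 (0.980) in MDA-MB-453. For CCNE1 in MDA-MB-453 the nearest genes were MZT2A (0.952), EIF4EBP2 (0.939) and SAMM50 (0.939), and for CDK4 AC034236.1 (0.958), AHCY (0.945) and RPS23 (0.940).

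In the GRCh38 genome (GENCODE v44, a later release than the authors counted with), CCND1 is at chr11:69641156-69654474, CCND2 at chr12:4269771-4305353, CCNE1 at chr19:29811991-29824312 and CDK2 at chr12:55966781-55972789, all on the plus strand. CCND3 (chr6:41934934-42050357), CCNE2 (chr8:94879770-94896678), CDK4 (chr12:57747727-57756013) and CDK6 (chr7:92604921-92836573) lie on the minus strand. Besides CCND2, several of these genes share exon bases with genes of the opposite strand in this annotation, and the strand setting of the counting is not given in the sources used here. CDK4 shares 1369 exon bases with TSPAN31, CCNE2 shares 1629 with INTS8, CCND1 shares 497 with LTO1, and CDK2 shares 89 with PMEL and 565 with the lncRNA ENSG00000258554. Over all 24 libraries TSPAN31 had 1204 counts against 17624 for CDK4, LTO1 877 against 59454 for CCND1, PMEL 79 against 10263 for CDK2, and INTS8 1317 against 1261 for CCNE2. How reads in the shared bases were assigned was not tested. CCNE1 shares no exon bases with another annotated gene.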

How the data were processed

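Per the labels and the study's methods, the authors trimmed the single-end reads of 3′ QuantSeq forward libraries (BBDuk), aligned these against hg38 (STAR) and summed them over genes (featureCounts). The deposited values are raw counts, whole numbers per gene symbol, for 24 libraries. The strand setting, the treatment of reads with several alignments and the removal of duplicates are not given in the sources used here, so counting intervals and floors cover counting error alone. The 1 row that names no gene held 0 counts.

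From these counts, genes were filtered by group with filterByExpr, scaled by TMM and tested with edgeR 4.0.16 (glmQLFit and glmQLFTest, 2-sided) in R 4.3.3, with Benjamini-Hochberg adjustment over all genes tested and a threshold of 0.05. The 12 libraries of a line were fitted together, and all 24 for comparisons between lines. edgeR's fitted changes carry a prior count of 0.125. The biological coefficient of variation was 13.4% in MDA-MB-231, 12.6% in MDA-MB-453 and 13.1% over both. No pair of replicates of a group agreed within sampling noise. Ratios of low counts have exact binomial intervals at 95%. Group means are of 3 libraries.

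The members and the gene lists were chosen with earlier results of these data known. From each list the text names the called gene with the largest abemaciclib effect in each line among genes averaging at least 10 CPM, plus RB1, CDKN1A, CDKN1B, CDKN2A, CCNA2 and E2F1 in any case. For some of these genes the value in the other line is printed too, whatever its level or call. The alternatives were DESeq2 1.42.0, DESeq2 size factors, no filter on low counts, mitochondrial genes left out, a replicate block, only the groups compared, and leaving out each library in turn. Likeness was computed for members called under abemaciclib, among genes averaging at least 10 CPM.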

Additional observations from a re-analysis of the deposited data

Results flagged for a closer look

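The effect of abemaciclib differed between the lines for CCNE1, CCNE2, CDK2 and CDK6, as tested by an interaction term in the edgeR model of all 24 libraries. As MDA-MB-453 minus MDA-MB-231, the log2 fold changes differed by -2.44 (SE 0.61, adjusted p = 0.00234) for CCNE1, -5.60 (SE 0.79, adjusted p = 2.75e-07) for CCNE2 and -1.10 (SE 0.16, adjusted p = 9.79e-07) for CDK2. For CDK6 it was 1.10 (SE 0.31, adjusted p = 0.00832), with log2 fold changes of -0.32 (MDA-MB-231) and 0.77 (MDA-MB-453), neither of which passed alone.

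The effect of the combination differed for CCND1 (-0.51, SE 0.11, adjusted p = 0.000429), CCNE1 (-3.21, SE 0.69, adjusted p = 0.000464), CCNE2 (-3.24, SE 0.59, adjusted p = 3.94e-05) and CDK2 (-0.97, SE 0.16, adjusted p = 1.17e-05). The abemaciclib and combination effects share the DMSO libraries of each line. No group had more than 3 libraries, so the members' levels were not tested for single outlying libraries.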

How the results depend on the processing

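Of 112 tested results for single genes, 11 changed their call under at least 1 alternative and 0 changed direction while called. Of the 43 that were called, 38 stayed called under every alternative run. The number of members called was within 1.5 times the reported one except in 2 comparisons, each with 0 as reported. The departure from additivity in MDA-MB-231 ranged from 0 to 1 called member when single libraries were left out, the 1 being CDK6 without fulvestrant replicate 1. The combination against abemaciclib in MDA-MB-453 gave 1 called member, CCND1, with DESeq2, and 0 to 1 when single libraries were left out. The replicate numbers did not pair the samples: deviations of same-numbered libraries correlated at -0.195 to 0.0586 in MDA-MB-231 and at -0.174 to 0.0585 in MDA-MB-453. The replicate block changed no member's call, and its counts for abemaciclib against DMSO were 4 (MDA-MB-231) and 6 (MDA-MB-453). Over all genes it moved the calls for the departure from additivity in MDA-MB-231 from 14 to 6 and for the difference in fulvestrant effect from 135 to 37.

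Over all genes, counts moved by more than 1.5 times only in 7 comparisons with few calls. In MDA-MB-231, fulvestrant against DMSO (0 genes) gave 14 without the filter and 0 to 205 without single libraries, 205 without fulvestrant replicate 1. The combination against abemaciclib (3 genes) gave 55 with DESeq2, 5 with its size factors, 9 without mitochondrial genes, 49 without the filter, 30 with only the groups compared, and 0 to 96 without single libraries. The departure from additivity (14 genes) gave 65, 132 without the filter, and 2 to 449. In MDA-MB-453, fulvestrant (156 genes) gave 294 with DESeq2, 269 without the filter and 5 to 786, the combination against abemaciclib (273 genes) gave 83 to 518, and the departure (421 genes) gave 191 to 873. The difference between the lines in the fulvestrant effect (135 genes) gave 374 with DESeq2, 297 without the filter and 2 to 615. The cause was not tested. Of 56 group levels, 38 moved by more than 1 SD with totals that left out mitochondrial genes and 2 with DESeq2 size factors. The totals without mitochondrial genes are smaller and carry no TMM factor. The 38 therefore include a change of unit and do not measure how far comparisons depend on scaling.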
